A study of Fukomys damarensis with 16 samples.

Results

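Brain was compared with kidney in Fukomys damarensis, the Damaraland mole-rat, an African rodent that digs its burrows and lives in colonies with few breeders, at the level of poly(A) RNA. The comparison used the 4 libraries labelled brain or frontal brain and the 4 labelled kidney, 8 of the 16 libraries of the series, and paired 1 brain with 1 kidney library by sex and breeding status. Of the 21082 genes in the table, the 15479 with 1 RPKM or more (reads scaled to a gene model of 1 kilobase and a library of 1e6 reads) in 2 or more of the 8 libraries were tested. The pairs are the breeding male, the breeding female, the non-breeding male (5 years) and the non-breeding female (3 years), and no age is given for the breeders. In the non-breeding libraries sex and age therefore cannot be told apart, and each combination of tissue, sex and status is 1 library. The brain library of the non-breeding male is labelled brain, and the other 3 are labelled frontal brain. It is not stated which libraries share an animal, nor whether RNA of animals was pooled, so p-values measure only the spread between these libraries. The rest of the series, liver (4 libraries), ovary (2) and testis (2), served only to describe the genes that the brain and kidney libraries had chosen.

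Frontal brain holds neurons that signal through synapses, the astrocytes and oligodendrocytes that support and insulate them, and microglia. Kidney filters blood in its glomeruli and recovers salts, water, glucose and amino acids along tubules lined by transporting epithelium. Brain is known for transcribing a large share of an animal's genes, and kidney for the high abundance of transcripts from its tubule cells. The identifiers in the table are not paired with gene names: 0 of the 21082 were found among the names, locus tags or accessions of 33132 RefSeq genes of assembly DMR_v1.0_HiC. The tissue labels could therefore not be checked against neuronal or tubular marker genes, and no gene below is given a function. Genes are described by their level, length and tissue pattern, and no more than 2 identifiers are printed for each direction of a comparison. These are bulk libraries, so fewer cells of a type and less RNA per cell cannot be told apart.

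The 8 libraries held similar numbers of reads on genes, 15393003 to 17541246 in brain and 15634095 to 19534775 in kidney. More genes were read in brain. A level of 1 RPKM or more was reached by 14165 genes in the breeding male brain, 14147 in the breeding female, 14178 in the non-breeding male and 14011 in the non-breeding female. In the kidneys of the same classes the numbers were 13461, 13506, 13293 and 13279. The lowest brain library thus stood above the highest kidney library, and the means were 14125 ± 77.2 and 13385 ± 116 (SD, n = 4 each), a difference of 740.5 genes. With every library thinned to 15393003 reads, the number of genes with 5 or more reads was 15453 to 15747 in brain and 14891 to 15122 in kidney, again without overlap.

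Kidney RNA was concentrated on fewer genes. The 100 most abundant genes of a library took 16.9%, 16.7%, 16.4% and 16.9% of the reads in the brains of the breeding male, breeding female, non-breeding male and non-breeding female. They took 21.2%, 23.8%, 22.2% and 23.4% in the kidneys of the same classes. Every kidney library lay above every brain library, with means of 16.7% ± 0.21 in brain and 22.7% ± 1.17 in kidney (SD, n = 4). The most abundant gene alone held 0.668% ± 0.059 of the reads in brain and 2.17% ± 0.72 in kidney. The number of genes that together hold 50% of the reads was 968.5 ± 66.1 in brain and 788.8 ± 52.4 in kidney. In these 4 measures (genes read, share of the 100 most abundant, share of the first, genes holding 50%) the tissues did not overlap. Each gave p = 0.0286 by a two-sided exact permutation test of 4 libraries against 4, and 0.0286 after Benjamini-Hochberg adjustment over the 4. The test did not use the pairing by class, and this is the smallest p that it allows without pairs.

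Brain and kidney differed in most genes, in both directions about equally. A fit in limma with terms for the 4 classes called 5766 of the 15479 genes (37.3%) higher in brain and 5656 (36.5%) higher in kidney at an adjusted p of 0.05, 73.8% together. Differences are on the scale of log2(RPKM + 1), which understates changes of low genes. The median difference over all genes tested was 0.01 on the deposited scale, 0.06 with libraries scaled to reads on genes and -0.08 after quantile normalization. Since each library is scaled to a total of its own, a shift of all genes together cannot be seen in such values. Which direction had more calls also depended on the scaling, with 5348 genes higher in brain and 6088 in kidney after quantile normalization. A difference of 2-fold or more was also reached by 3705 of the genes higher in brain (23.9% of those tested) and by 3456 of those higher in kidney (22.3%). The other 4261 calls were smaller than 2-fold. Of the 4057 genes not called, 3770 (92.9%) had a 95% interval of the difference that lay within 2-fold in either direction, and for these a larger difference is outside the interval.

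Among the very large differences of log2(RPKM + 1) the balance changed with size. At 8-fold or more 1212 genes were called higher in brain and 810 in kidney. At 32-fold or more the numbers were 371 and 282. At 128-fold or more kidney had more, 81 against 65, and at 512-fold or more 8 against 4. With a pseudocount of 1, the size is limited by the gene's own level where the other tissue is near 0. With a pseudocount of 0.1 the 2 leading genes toward brain stood at 11.55 and 11.49 and those toward kidney at -10.17 and -9.58. The counts from 8-fold upward were not repeated with it. The balance also changed with level. Of the calls among genes with a mean under 1 RPKM over the 8 libraries, 62.0% were higher in brain, and among genes at 100 RPKM or more 38.5% were, with a steady fall over the 4 bins of level between them (59.6%, 51.6%, 50.1% and 47.5%). The share of genes called was 70.7% in the lowest bin and 85.7% in the highest. Genes of the lowest bin were tested only if 2 or more libraries reached 1 RPKM. That filter favours genes that are high in 1 tissue, so the shares of this bin depend on it. The plot of brain against kidney levels shows both arms, with the most extreme single point on the kidney side.

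**Figure D1:**
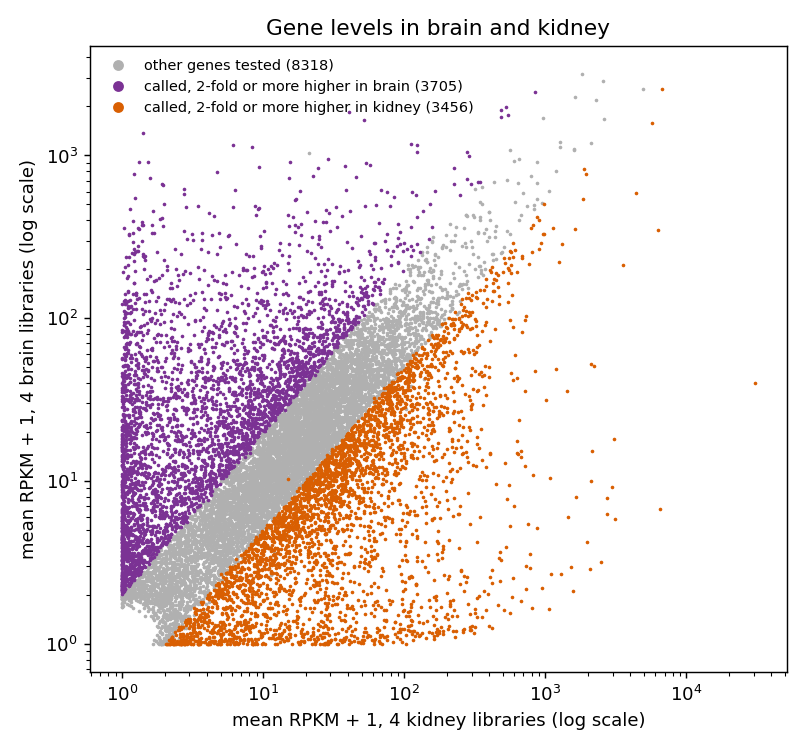
Mean RPKM + 1 of each of the 15479 genes tested in the 4 kidney libraries (horizontal, log scale) and the 4 brain libraries (vertical, log scale). Purple points are the 3705 genes called 2-fold or more higher in brain, orange points the 3456 called 2-fold or more higher in kidney, and grey points the other 8318.

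The 4 pairs gave much the same picture. The breeding male pair had 3533 genes 2-fold or more higher in brain and 3406 in kidney, the breeding female pair 3980 and 3833, the non-breeding male pair 4022 and 3766, and the non-breeding female pair 3794 and 3254. In all 4 pairs 2849 genes were 2-fold or more higher in brain and 2428 in kidney, while 49 genes were past 2-fold in opposite directions in any 2 pairs. At any size, 6099 genes were higher in brain in 4 of 4 pairs, 5944 were higher in kidney in 4 of 4, and 994 split evenly. Across genes the differences of the 4 pairs correlated with Pearson's r of 0.948 to 0.969, and the levels in brain and kidney of a pair with a Spearman's rho of 0.475 to 0.515. These are descriptions across genes, which are not independent replicates.

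The gene with the largest difference of log2(RPKM + 1) toward brain was DMR_17735, with a length of 585 bases. It stood at 1016 RPKM in the breeding male brain, 1372 in the breeding female, 1487 in the non-breeding male and 1646 in the non-breeding female, and at 0.157, 0.248, 0.429 and 0.797 RPKM in the kidneys of those classes. The kidney values rest on 2, 3, 5 and 8 reads. The gene ranked 17 by mean level in brain, and the lowest brain library lay far above the highest kidney library. The log2 difference was 9.94 (SE 0.127, limma adjusted p = 3.99e-09).

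The gene DMR_11067, of 2952 bases, was next. Its levels were 973.9, 921.9, 906.6 and 849.1 RPKM in the brains, a narrow range, and 0.140, 0, 0.357 and 0.809 RPKM in the kidneys, in the same order of classes. The breeding female kidney held no read of it, which allows up to 3 reads, and the other kidneys held 9, 21 and 41. The log2 difference was 9.46 (SE 0.179, limma adjusted p = 3.99e-09). Outside brain, testis had the highest levels of both genes, 2.39 and 2.28 RPKM of DMR_17735 and 4.26 and 5.17 RPKM of DMR_11067, and ovary and liver stayed at 1.55 RPKM or below.

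Toward kidney the largest difference belonged to DMR_07783, of 1719 bases. It stood at 7448 RPKM in the breeding male kidney, 8951 in the breeding female, 4990 in the non-breeding male and 4817 in the non-breeding female, and at 8.37, 5.44, 6.02 and 3.09 RPKM in the matching brains. Both breeder kidneys lay above both non-breeder kidneys, a spread far smaller than the gap to brain. The log2 difference of brain minus kidney was -9.94 (SE 0.192, limma adjusted p = 4.39e-09).

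The gene DMR_20267, of 639 bases, was the most abundant gene in kidney. Its levels were 19602, 27174, 30615 and 44968 RPKM in the kidneys of the breeding male, breeding female, non-breeding male and non-breeding female, and 28.65, 41.8, 50.6 and 34.5 RPKM in the brains. The kidney values spanned more than 2-fold and did not overlap the brain values. The log2 difference was -9.55 (SE 0.237, limma adjusted p = 8.82e-09), and the gene still ranked 3208 of all genes in brain. In the other tissues it was highest in ovary, at 29.8 and 27.3 RPKM.

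**Figure D2:**
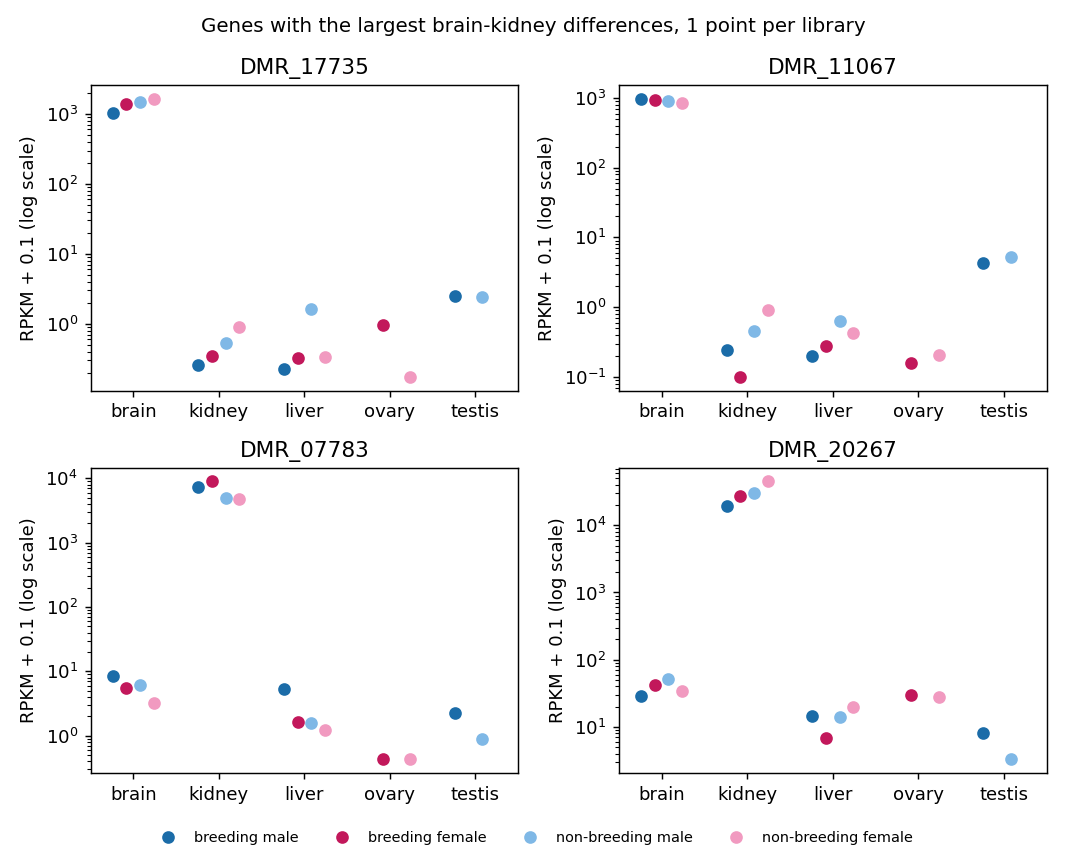
Level of the 2 genes with the largest difference toward brain (top) and the 2 toward kidney (bottom) in each of the 16 libraries, as RPKM + 0.1 on a log scale, 1 point per library coloured by sex and status. DMR_17735 and DMR_11067 lie between 849.1 and 1646 RPKM in brain and at 5.17 or below elsewhere, and DMR_07783 and DMR_20267 between 4817 and 44968 in kidney and at 50.6 or below elsewhere.

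Beyond these 4, the 100 largest called differences in each direction had a similar shape. Toward brain they ran from 6.6 to 9.94 on the log2 scale, with a median brain level of 252.7 RPKM and a median kidney level of 0.291 RPKM. Toward kidney they ran from 6.74 to 9.94, with a median of 327.9 RPKM in kidney and 0.688 RPKM in brain. In the other tissues, 72 of the 100 brain genes reached 1 RPKM in both testes, 30 in both ovaries and 6 in all 4 livers. Of the 100 kidney genes 46 were so in testis, 35 in ovary and 69 in liver. Over all genes tested the shares were 85.5% in testis, 81.6% in ovary and 74.99% in liver, so both lists lay below all genes in each tissue. With libraries scaled to reads on genes the liver counts were 5 and 65.

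The genes of each direction carried nearly equal parts of their tissue's RNA. The 3705 genes 2-fold or more higher in brain took 46.9% ± 1.90 of the reads in brain and 7.10% ± 0.38 in kidney (SD, n = 4). The 3456 genes higher in kidney took 49.5% ± 0.71 of the reads in kidney and 7.92% ± 0.98 in brain. The remaining 8318 genes tested took 45.1% and 43.3%. These shares follow from how the genes were chosen and are given as a description. A typical brain-higher gene had a mean of 24.1 RPKM in brain and 2.11 in kidney, and a typical kidney-higher gene 30.5 RPKM in kidney and 4.80 in brain (medians).

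The most abundant transcripts were mostly different ones. Of the 10 most abundant genes of each tissue by mean RPKM 2 were shared, of the 100 most abundant 32 (32% of each list), and of the 1000 most abundant 374 (37.4%). Of the 68 genes that stood among the 100 of brain alone, 65 were called higher in brain, and all 68 that stood among the 100 of kidney alone were called higher in kidney. These counts follow from how the lists were drawn and support nothing further. To enter the list of 100 took 485.6 RPKM in brain and 627.5 RPKM in kidney. The first gene stood at 3148 RPKM in brain and 30589 in kidney.

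Genes read in 1 of the tissues and hardly in the other were more often brain genes. At 1 RPKM or more in all 4 brain libraries and under 0.1 RPKM in all 4 kidneys there were 284 genes, and with the tissues exchanged 100. The brain set had a median level of 8.41 RPKM and reached 205.6 RPKM, and 125 of its genes were at 10 RPKM or more. The kidney set had a median of 7.82 RPKM, reached 101.9 RPKM and held 44 genes at 10 RPKM or more. In 129 of the 284 no kidney library held a read, and in 49 of the 100 no brain library did. Such an absence covers counting error only, since 0 reads allow up to 3 in a library.

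Few genes of either set were read throughout another tissue. Of the 284 brain genes 95 (33.5%) reached 1 RPKM in both testes, 20 (7.04%) in both ovaries and 6 (2.11%) in all 4 livers, against 85.5%, 81.6% and 74.99% of all genes tested. Of the 100 kidney genes 26% were so in testis, 22% in ovary and 18% in liver. With libraries scaled to reads on genes the shares in liver were 1.41% and 17%, and those in testis 41.5% and 36%. The difference between the sets was not tested. In 25 of the brain genes and 5 of the kidney genes all 8 libraries of the other tissues were under 0.1 RPKM as well. At the looser limit of 1 RPKM, 1533 of the genes tested were below it in every kidney library and 885 in every brain library, while 11458 genes reached it in all 8.

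Genes higher in brain were longer than genes higher in kidney. Lengths were recovered from the RPKM values and are taken as coding lengths in units of 3 bases. The median was 1377 bases for the genes 2-fold or more higher in brain, 1152 for those higher in kidney, 1287 for the genes not called and 1299 for all genes tested. Lengths of 3000 bases or more were found in 16.2% of the brain-higher genes, 9.72% of the kidney-higher genes and 13.8% of all tested. The direction held at each level, but the gap was small among lower genes. For genes with a mean of 30 RPKM or more over the 8 libraries the medians were 1497 (brain) and 1077 bases (kidney). At 10 to 30 RPKM they were 1518 and 1257, at 3 to 10 RPKM 1300 and 1227, and under 3 RPKM 1044 and 969. At 3 to 10 RPKM the median of all genes tested, 1323, was above both.

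The genes tested were divided by length into 5 equal groups, from 72 to 651 bases in the shortest to 2484 to 28602 in the longest. Of the calls of 2-fold or more, 46.3%, 45.7%, 50.7%, 53.2% and 63.7% were higher in brain, from the shortest group to the longest, whereas the share of genes called at all stayed between 72.6% and 75.7%. The median log2 difference of brain minus kidney went from -0.18 in the shortest group to 0.25 in the longest, a step of 0.43. The step was 0.35 in the breeding male pair, 0.48 in the breeding female, 0.68 in the non-breeding male and 0.19 in the non-breeding female, so all 4 pairs had its direction and differed in its size (SD 0.20). Libraries of 1 tissue also differed by length: a brain library minus the other 3 gave steps from -0.24 (breeding male) to 0.21 (breeding female), and a kidney library minus the other 3 from -0.13 (breeding male) to 0.15 (non-breeding female). With no filter on low values the step fell to 0.18.

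A length can also be given per library. The mean gene length weighted by RPKM was 1533 to 1697 bases in brain (mean 1626 ± 78.2, SD, n = 4) and 1335 to 1402 in kidney (mean 1369 ± 31.3). The median length of genes at 10 RPKM or more was 1387 ± 24.3 in brain and 1335 ± 15.7 in kidney. Neither measure overlapped between the tissues. Each gave p = 0.0286 by the same unpaired two-sided exact permutation test, the smallest it allows, also after adjustment over both. These measures were chosen after the lengths had been seen. Whether RNA integrity or fragment size, of which the labels give no value, moved with length was not tested.

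**Figure D3:**
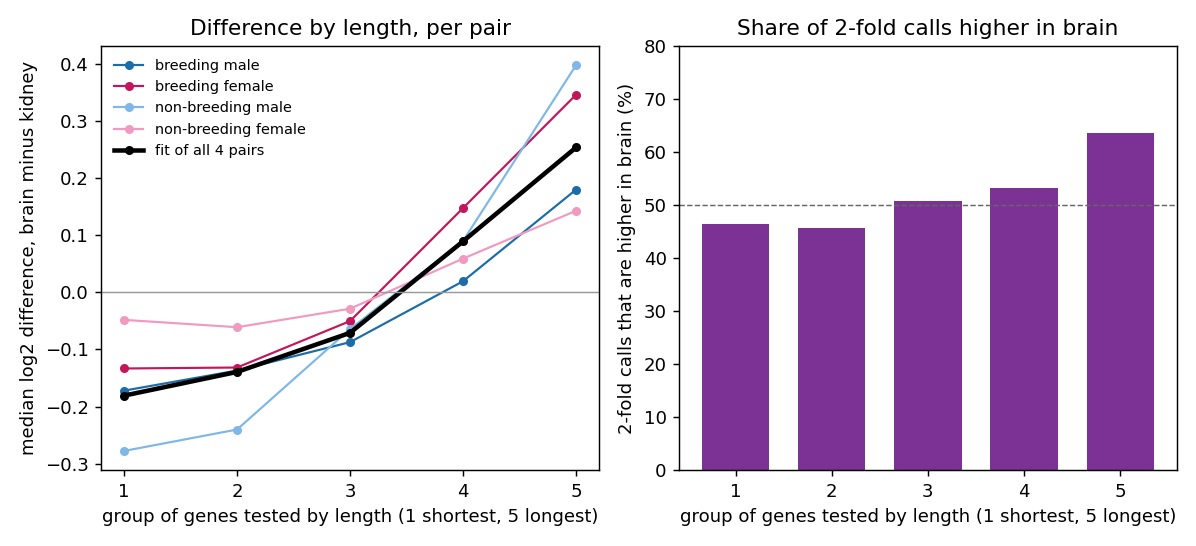
Left, median log2 difference of brain minus kidney in each of 5 equal groups of the genes tested, by length, 1 thin line per pair and a black line for the fit of all 4 pairs. Right, share of the 2-fold calls that were higher in brain in each group, with a dashed line at 50%. All lines stand higher in the longest group than in the shortest, and the share reaches 63.7% in the longest.

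Liver, ovary and testis had no part in the choice of the genes. Fewer of the brain-higher than of the kidney-higher genes were read throughout these tissues. The choice of the genes enters these shares. The filter let in 1533 genes under 1 RPKM in every kidney library and 885 under it in every brain library. The brain-higher genes were also lower in kidney than the kidney-higher genes in brain (median log2 levels 1.60 and 2.496). How much of the difference in shares goes with this was not tested. Of the 3705 genes 2-fold or more higher in brain, 46.2% were at 1 RPKM or more in all 4 liver libraries, 63.2% in both ovaries and 75.5% in both testes. Of the 3456 higher in kidney the shares were 81.1%, 79.8% and 80.1%. Over all genes tested they were 74.99%, 81.6% and 85.5%, and over the genes not called 85.0%, 90.7% and 92.0%. The kidney-higher genes thus lay above all genes tested in liver alone on this deposited scale, and the brain-higher genes lay below them in all 3 tissues.

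Median levels are given as log2(RPKM + 1) of the deposited values. The brain-higher genes had a median log2 level of 4.63 in brain, 1.60 in kidney, 1.19 in liver, 2.10 in ovary and 2.58 in testis. The kidney-higher genes had 4.94 in kidney, 2.496 in brain, 4.52 in liver, 3.76 in ovary and 3.22 in testis. In 2384 of the brain-higher genes (64.4%) the lowest brain library stood above all 8 libraries of liver, ovary and testis, and in 856 of the kidney-higher genes (24.8%) the lowest kidney library did.

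Part of this depends on how liver is scaled. Divided by the library total that the RPKM used, the reads on genes were 0.781 to 0.945 in the brain and kidney libraries, 0.665 to 0.769 in testis and ovary, and 1.55 to 1.97 in liver, so the deposited liver values are high per read on genes. On the deposited scale every liver library was above every kidney library in 747 of the kidney-higher genes (21.6%). After scaling every library to the reads it had on genes there were 334 (9.66%). Ovary and testis went the other way. Ovary was above kidney in 470 of these genes (13.6%) on the deposited scale and in 634 (18.3%) after scaling to reads on genes. Testis was so in 276 (7.99%) and 409 (11.8%). With libraries scaled to reads on genes, the lowest own library stood above all 8 others in 63.2% of the brain-higher and 29.8% of the kidney-higher genes. On that scale 39.6% and 76.8% were at 1 or more in every liver library, against 69.8% of all genes tested. Testis was above every brain library in 381 of the brain-higher genes (10.3%) on the deposited scale and in 498 (13.4%) after scaling to reads on genes.

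**Figure D4:**
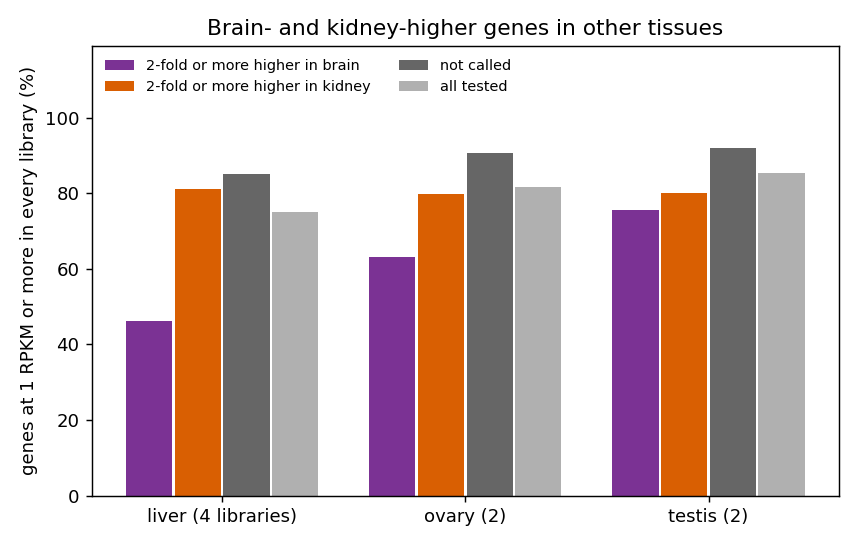
Share of genes at 1 RPKM or more in every library of liver, ovary and testis, on the deposited scale, for the 3705 genes higher in brain by 2-fold or more (purple), the 3456 higher in kidney (orange), the 4057 not called (dark grey) and all 15479 tested (light grey). The brain-higher genes have the lowest bar in each tissue, from 46.2% in liver to 75.5% in testis.

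The 4 libraries of a tissue, which differ in sex and status, were compared over the 6373 genes at a mean of 10 RPKM or more in both tissues. The median SD of a gene over 4 libraries was 0.24 on the log2 scale in brain and 0.27 in kidney. The highest and lowest library were 2-fold or more apart in 748 genes in brain (11.7%) and 1072 in kidney (16.8%). Single libraries made much of this. Without the breeding male brain the number was 182 in brain, and without the breeding female brain 350. Without the breeding female kidney it was 346 in kidney. No order of the tissues in spread can thus be read from the totals.

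The same libraries stood apart gene by gene. The breeding female kidney differed by 2-fold or more from each of the other 3 kidneys in 379 genes, 107 above and 272 below, against 59 for the breeding male kidney, 131 for the non-breeding male and 112 for the non-breeding female. In brain the breeding male differed so in 113 genes, the breeding female in 51, the non-breeding male (labelled brain) in 41 and the non-breeding female in 20. In this count the library with the differing tissue label stood apart in fewer genes than either breeder brain. It stood apart in more genes than the other non-breeding brain, 41 against 20. Whether the label goes with differences in other genes was not tested. The calls between the tissues rested on none of these libraries alone: leaving out each of the 8 in turn gave 5166 to 5599 genes higher in brain and 5070 to 5570 higher in kidney. With class terms in the fit, leaving out a library also took the other library of its pair out of the difference.

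The pairs also allow the difference between the tissues to be compared between the sexes. Few genes passed. Limma called 12 of the 15479 genes (0.0775%) for a brain-minus-kidney difference that depended on sex, 2 of them with the larger value in males and 10 with the larger value in females. At an unadjusted p under 0.05 there were 623 genes (4.03%), fewer than 5% of those tested. The fit leaves 1 residual degree of freedom, and with 1 interaction at a time none of the 12 was called. Limma adds 13.58 prior degrees of freedom drawn from the spread of all genes. The SE and p of a single gene in this fit thus rest mostly on the spread of other genes. Of the 12, the sexes differed more in kidney than in brain in 8. The kidneys of the sexes did not overlap in 9, and both male kidneys were above both female kidneys in 7. The 12 were chosen by the sex difference in these same libraries, so these counts only describe them and support nothing further.

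The largest negative value belonged to DMR_21560, of 4302 bases. It stood at 24.7 RPKM in the breeding male kidney and 56.0 in the non-breeding male kidney, and at 0.652 and 4.35 in the breeding and non-breeding female kidneys. In brain it was between 0.105 and 0.250 RPKM in all 4 libraries, and in liver between 236.8 and 358.3. The male kidneys were thus higher than the female kidneys, and brain hardly held the gene in either sex. The brain-minus-kidney difference was -4.96 in males and -1.39 in females, a gap of -3.57 (SE 0.414, limma adjusted p = 0.0059). Beside a pseudocount of 0.1 its adjusted p in limma was 0.111.

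The gene DMR_06440, of 1479 bases, was at 13.2 and 27.3 RPKM in the breeding and non-breeding male kidneys and at 1.73 and 1.497 in the female kidneys. The brains held 2.41 (breeding male), 1.49 (non-breeding male), 2.13 (breeding female) and 4.63 RPKM (non-breeding female), where the sexes overlapped. The gap between the sexes was -3.47 (SE 0.507, limma adjusted p = 0.0125).

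Toward the other direction, DMR_19452, of 1857 bases, was at 14.9 and 4.49 RPKM in the breeding and non-breeding female kidneys and 0.643 and 0.244 in the male kidneys. In brain it was between 1.18 and 2.80 RPKM with the sexes overlapping, and in every other library at 0.391 or below. The gap was 3.10 (SE 0.414, limma adjusted p = 0.00886).

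The last of the 4, DMR_09196, of 444 bases, was at 86.1 and 9.17 RPKM in the breeding and non-breeding male kidneys and 245.7 and 100.5 in the female kidneys. In brain the breeding male held 80.9 RPKM and the other 3 libraries 22.0 to 25.3. Its level in liver was far higher, 1272 to 2861 RPKM. The gap was 3.24 (SE 0.4, limma adjusted p = 0.0059) with all 8 libraries.

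**Figure D5:**
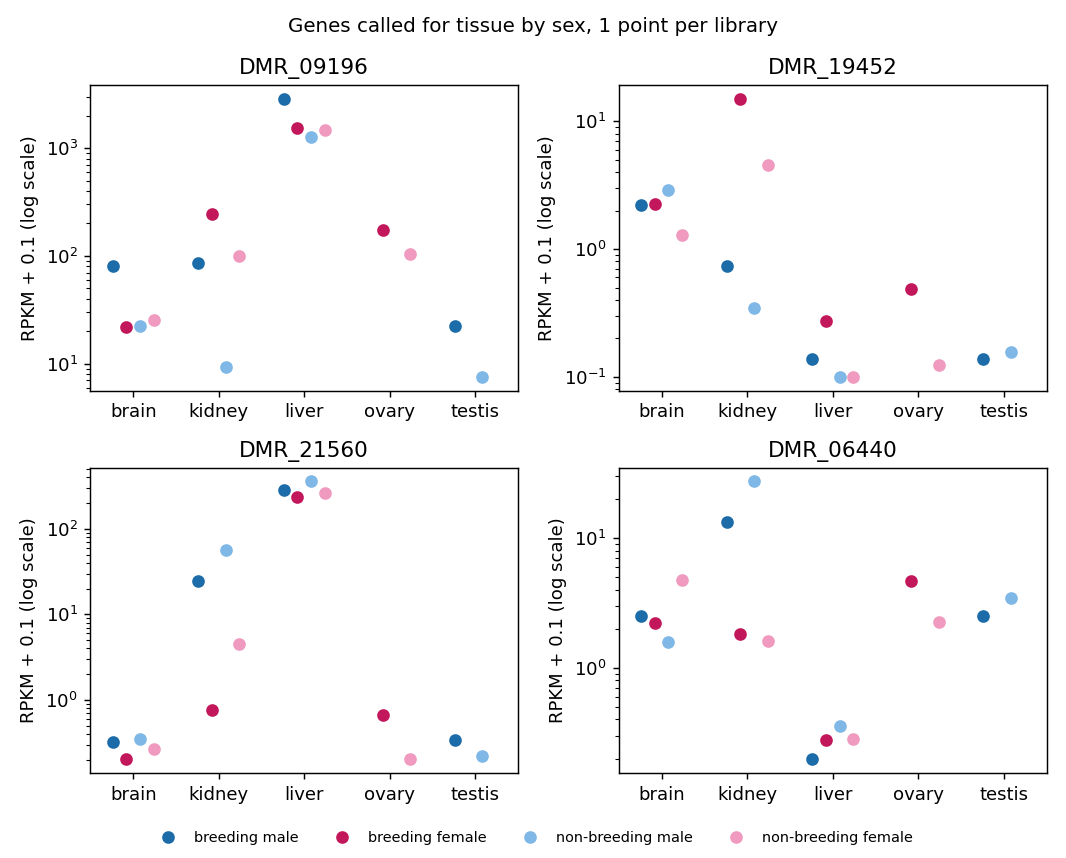
Level of the 4 named genes called for a brain-minus-kidney difference that depended on sex, in each of the 16 libraries, as RPKM + 0.1 on a log scale, 1 point per library coloured by sex and status. In kidney the 2 female libraries lie above the 2 male libraries for DMR_09196 and DMR_19452, and below them for DMR_21560 and DMR_06440.

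Without a model, 458 of the 15479 genes tested had kidneys that did not overlap between the sexes and mean levels 2-fold or more apart. In brain 171 of the 15479 did so, and 44 did so in both tissues in the same direction. Kidney also had more such genes than brain when split by breeding status, 266 against 52. These numbers were not tested against what chance gives with so few libraries, and are a description. The breeding female kidney stood apart from the other 3 in 379 of the more abundant genes, as given above, and its part in these numbers was not tested.

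No gene was called for a brain-minus-kidney difference that depended on breeding status. The share called by limma was 0%, with 459 genes at an unadjusted p under 0.05 and a lowest adjusted p of 0.0594. A fit on the recovered reads (voom) called 15. Of the 15479 genes tested, breeders and non-breeders did not overlap, with mean levels 2-fold or more apart, in 266 in kidney and 52 in brain. In 10 this was so in both tissues in the same direction, and these counts were not tested against chance. Since no age is given for the breeders, effects of status and age cannot be told apart.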

How the data were processed

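Poly(A) RNA of 16 mole-rat libraries was sequenced, and the authors deposited RPKM values for 21082 genes in 1 table. The submitters' notes list TopHat 1.3.1, software that aligns reads across splice junctions. The build, annotation and counter were not given in the sources used here. Every one of the 16 columns entered. Each RPKM is a quotient of whole numbers, so reads, gene lengths and library divisors were recovered, with whole reads for 100% of genes (relative tolerance 1e-11) and a length unit of 3 bases by assumption. Gene names could not be assigned, so no list of marker genes was used.

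Tests ran on log2(RPKM + 1) in limma 3.58.1 (R 4.3.3, mean-variance trend, Benjamini-Hochberg adjustment over all 15479 genes, threshold 0.05), with class and tissue terms and 3 residual degrees of freedom. Sex and status interactions shared a further fit with 1 residual degree of freedom, not the 2 stated when the tests were planned. Limma added prior degrees of freedom from the spread of all genes, 5.145 in the main fit and 13.58 in the interaction fit. Single values per library were compared by exact permutation tests in scipy 1.17.1, without the pairing by class. The main fit of the tissue difference and the recovery of reads were checked on simulated data. The interaction fits and the alternative fits were not.

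Classes were used as pairs. Deviations of brain and kidney libraries of the same class from their tissue means correlated with r of 0.198 to 0.409, all above 0.1, against -0.38 to 0.24 for different classes, and 7 of 8 libraries correlated best with their own class.

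Named are the 2 genes with the largest difference in each direction among calls with 1 direction in all 4 pairs, and for each interaction the 2 largest calls in each direction. The members, the lists and these rules were chosen with earlier results of these data known. The alternatives were the pseudocount, the filter, the scaling (reads on genes, quantile), limma's voom on the recovered reads with trimmed-mean scaling factors, no class terms, a fit of all 16 libraries and leaving out each library. In limma the last kept the class terms, so either library of a pair left out removes the same pair from the difference. Depth was 15393003 to 19534775 reads on genes, and floors for 0 reads cover counting error only.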

Additional observations from a re-analysis of the deposited data

Results flagged for a closer look

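The brain-minus-kidney difference depended on sex in 12 genes by limma's interaction test, and the 4 named ones are given by the size of the gap, male minus female difference. The gap was 3.24 in DMR_09196 and 3.10 in DMR_19452, whose female kidneys were the higher ones, and -3.57 in DMR_21560 and -3.47 in DMR_06440, whose male kidneys were the higher ones. With 1 interaction at a time and all 8 libraries, limma's adjusted p for these 4 genes was 0.699 to 0.81, and none of the 12 was called. Of the 15 alternatives, 8 kept the call of DMR_09196, 8 that of DMR_19452 and 8 that of DMR_06440, and 6 of 14 kept that of DMR_21560, with the same sign throughout.

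The breeding male brain held 80.9 RPKM of DMR_09196 and stood far from the other 3 brain libraries, at 22.0 to 25.3 RPKM. It was the 1 such library among 30 groups of 4 values examined, where chance alone gives about 1 in 20. The library's own part in the gap between the sexes was not tested. With class terms in the fit, leaving it out also takes the breeding male kidney out of the difference. With 1 interaction at a time the gap was then 3.88, the same as without the breeding male kidney.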

How the results depend on the processing

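The counts of genes higher in brain (5166 to 6216) and in kidney (5070 to 6088) stayed within 1.5 times under every alternative run, the pseudocount of 0.1, both filters, both other scalings, voom, the fit of all 16 libraries and each library left out, and no call between the tissues changed direction. The balance turned after quantile normalization, with 5348 higher in brain and 6088 in kidney (3403 and 3767 at 2-fold or more). Without the replicate block of class terms there were 5474 genes higher in brain and 5274 in kidney, and the block changed no call of the 4 leading genes. The 4 leading genes passed all 16 alternatives. Their order toward brain changed by voom, where DMR_11067 stood at 12.01 and DMR_17735 at 11.72.

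The interactions depended on the processing. The count for sex, 12, was 21 with no filter, 7 with the stricter filter, 25 after quantile normalization and 27 by voom. With 1 interaction at a time, added after seeing the data, it was 0, and 2 to 38 with a library also left out (37 without the non-breeding female brain, 38 without that class's kidney). The count for status, 0, was 3 with the stricter filter, 5 after quantile normalization and 15 by voom, and 0 to 8 with 1 interaction at a time and a library left out. Leaving out a library from the fit of both interactions leaves no residual degree of freedom and was not run. DMR_21560 lost its call beside a pseudocount of 0.1 (-3.84). The cause was not tested.

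With each library left out, brain minus kidney was 705.2 to 780.9 genes read and -6.40 to -5.53 percentage points for the 100 most abundant genes. The exact permutation p was then 0.0571, the smallest that 3 against 4 allows. Genes read in 1 tissue numbered 159 (brain) and 44 (kidney) at 5 RPKM or more, and 129 and 49 with exactly 0 in the other. The step with length was 0.18 with no filter.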

Other observations

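Some abundant genes of a tissue were read at a trace in the other. The 35 genes chosen for a mean of 500 RPKM or more in kidney and under 1% of that mean in brain all had reads in each of the 4 brain libraries. Their median level in a brain library was 0.161% of the kidney mean in the breeding male, 0.198% in the breeding female, 0.234% in the non-breeding male and 0.121% in the non-breeding female. In the other direction 15 genes were so chosen, with medians of 0.152%, 0.134%, 0.162% and 0.232% of the brain mean in the kidneys of the same classes. Of these 15 genes 14 had a read in the breeding male kidney, 13 in the breeding female kidney and all 15 in both non-breeding kidneys. Low medians follow from the choice of the genes. Whether they came from the tissue itself or from another library was not tested.

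Within a tissue, the libraries that were least alike were not the same classes in brain and kidney. Over the 6373 genes at 10 RPKM or more in both tissues, the breeding male and breeding female brains differed by a median of 0.37 on the log2 scale, and the 2 non-breeding brains by 0.21. In kidney the breeding female and non-breeding male differed by 0.40, and the breeding male and non-breeding male by 0.17.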
